A study of Mus musculus with 44 samples.

Results

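The 5 genes Mdh1, Paics, Dnaja1, Sumf2 and Hip1r were examined transcript by transcript in gastric corpus mucosa of mice. They were chosen from these same data because a single transcript of each nearly vanished in KO/NTZ mice when compared with KO/PEG mice, so every value in that comparison is given below as a description and without a test. Of all transcripts 2.56% passed the test there, as did 3.16% of transcript shares, and nothing is read from this about the members. The question was whether the loss followed the treatment, or went with single libraries and with counts that moved between transcripts of one gene. All 5 lost transcripts were above 3 counts in all 20 WT libraries, with NTZ or without, and at 3 counts or fewer in all 11 KO/NTZ libraries. In KO/PEG all 5 were that low in 4 of 13 libraries and all 5 were above 3 counts in 5, so the vehicle group held both states. The table holds 34 transcripts of these genes among 94080 transcripts in all, and 5 of 31517 genes. Of the 34, 19 had enough counts to be tested. The other 15 stayed at low counts in every group.

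Mdh1 encodes the cytosolic malate dehydrogenase, a part of the malate-aspartate shuttle that carries reducing equivalents into mitochondria. Paics encodes a bifunctional enzyme of de novo purine synthesis, and Dnaja1 a J-domain protein that works as a co-chaperone of Hsp70. Sumf2 encodes a protein of the endoplasmic reticulum related to Sumf1, the enzyme that activates sulfatases, and Hip1r encodes a protein that links clathrin-coated membranes to actin and is known from parietal cells, the acid-secreting cells of the corpus. A gene can be annotated with several transcripts that share most of their exons. A short read that falls in shared sequence does not tell which transcript it came from, and the quantification tool then divides it by an estimate made from all reads of the library.

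The KO mice lacked the beta subunit of the H+/K+ATPase, the proton pump of parietal cells, and the WT mice were their wild-type controls. All mice had a BalbC background and were 13 months old. NTZ (netazepide, written yf in the labels) blocks the gastrin receptor, and PEG (polyethylene glycol) was its vehicle. There were 20 WT libraries, 11 with PEG and 9 with NTZ, and 24 KO libraries, 13 with PEG and 11 with NTZ, all of poly-A selected RNA, with total estimated counts between 6065084 and 21945124. The targeted gene Atp4b was between 2146 and 5759 CPM in WT libraries and at most 40.0 CPM in KO libraries (CPM, the counts of a transcript or gene relative to the library size after TMM scaling). The genes of the parietal marker list, of which Atp4b is one, summed to between 9548 and 22742 CPM in WT and to between 2488 and 10414 CPM in KO libraries. That list also holds Gif, which the paper counts as a chief cell marker in mice, so its sum does not stand for parietal cells alone. Within KO/PEG, 5 libraries stood apart from the other 8 by their weight of 3' ends. The edgeR results for the members in KO/PEG against WT/PEG that rest on them are given with and without them. In bulk RNA fewer cells of a type and less RNA per cell cannot be told apart. The study states fewer KO/PEG mice than 13, and how the libraries relate to mice is not given in the sources used here, so p-values measure the spread between libraries, part of which may be technical.

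For each gene the lost transcript is the one with the most negative fitted change in KO/NTZ against KO/PEG, and the main transcript is the one with the highest mean count. Each lost transcript is nearly contained in its main transcript. Of the 31-base words of Mdh1-202, 90.6% also occur in Mdh1-201, and the shares are 98.4% for Paics-202 in Paics-203, 92% for Dnaja1-205 in Dnaja1-201, 95.8% for Sumf2-202 in Sumf2-204 and 96% for Hip1r-207 in Hip1r-201. The words found in no other transcript of the table, on either strand, numbered 24 of 519 for Mdh1-202, 30 of 1832 for Paics-202, 27 of 886 for Dnaja1-205, 69 of 1626 for Sumf2-202 and 28 of 717 for Hip1r-207. By these words alone, few reads of a lost transcript can be told from reads of others.

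The points at which the lost and the main transcripts part are shown because reads across them tell which of both was present. Capitals mark the bases beyond the point at which both part, in GENCODE vM21 transcripts of GRCm38, read 5' to 3'. Mdh1-202 begins with 49 bases that are not in Mdh1-201, and Dnaja1-205 with 71 that are not in Dnaja1-201. Paics-202 skips 267 bases of Paics-203, Sumf2-202 holds 44 more bases than Sumf2-204 at this point, and Hip1r-207 lacks 2 bases of Hip1r-201, so in these genes bases in capitals recur further along the other transcript.
Mdh1-202: GGTCTGGAGAGCGCTcaggtgcagagatcg
Mdh1-201: GGAGACTGCCTTTTGcaggtgcagagatcg
Paics-202: tcccgcgcccaaggaAACACTGCCCTTTTT
Paics-203: tcccgcgcccaaggaGTAGGTGATGAGAGT
Dnaja1-205: CCCTCTCTTTGTTGAggctgtaaaaaatgg
Dnaja1-201: GCCGGCCCGCTCACCggctgtaaaaaatgg
Sumf2-202: attttggaggcagccCAGGTTCCTCCTTCC
Sumf2-204: attttggaggcagccTGCAGGTCCCGGCTC
Hip1r-207: gagccacacagctggGAGTCAGCTGACAAG
Hip1r-201: gagccacacagctggTGGAGTCAGCTGACA
The windows of the lost transcripts span an exon junction in each case. They lie at chr11:21571751-21572333 on the minus strand for Mdh1-202, and on the plus strand at chr5:76951387-76951783 for Paics-202, chr4:40722986-40723716 for Dnaja1-205, chr5:129854055-129854480 for Sumf2-202 and chr5:124001077-124001221 for Hip1r-207. The annotation places the Mdh1-202 and Paics-202 windows in the 5' UTR, the Dnaja1-205 window across the 5' UTR and the start of the coding sequence, and the Sumf2-202 window in coding sequence. The Hip1r-207 window runs from coding sequence into the 3' UTR of that transcript. Sumf2-202 and Hip1r-207 are annotated as targets of nonsense-mediated decay, and the other 3 lost transcripts as protein coding.

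**Figure D1:**
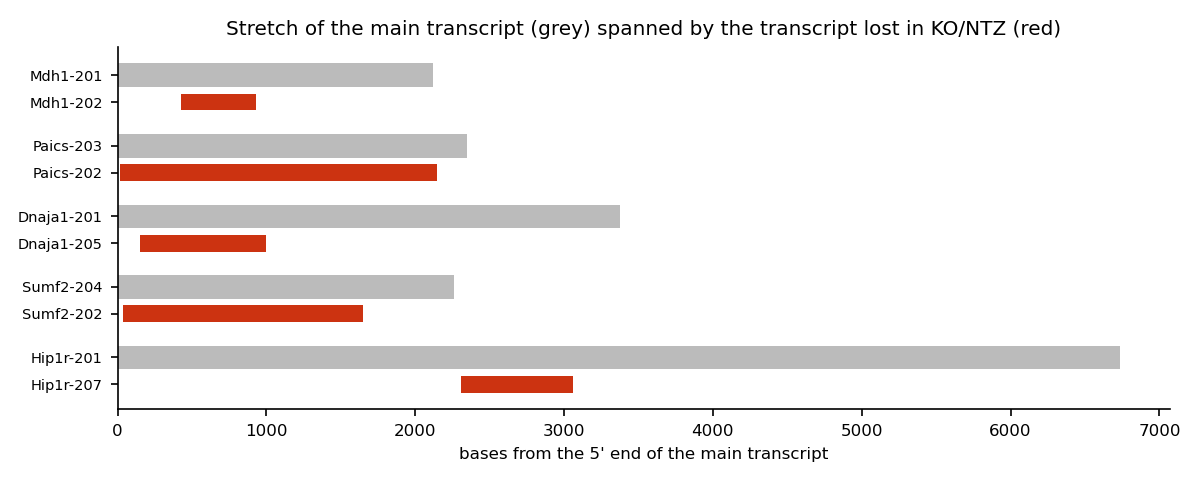
Horizontal position is the base counted from the 5' end of the main transcript of each gene (grey bars), and red bars span the stretch of it in which the lost transcript lies. Every red bar stops before the 3' end of its grey bar, by 196 bases in Paics, 618 in Sumf2, 1194 in Mdh1, 2378 in Dnaja1 and 3678 in Hip1r.

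Each lost transcript ends before the 3' end of its main transcript. The distance was 1194 bases for Mdh1-202, 196 for Paics-202, 2378 for Dnaja1-205, 618 for Sumf2-202 and 3678 for Hip1r-207, as the map of the transcripts shows. By 31-base words, Dnaja1 also shares 972 words with the processed pseudogene Gm15542, 929 with Gm7816 and 554 with Gm6335, while Paics shares 97 with Gm5995 and 64 with Gm7838, and Sumf2 shares 67 with the unprocessed pseudogene Gm9894. Reads of these genes may have been divided with the pseudogenes too, so values of Dnaja1, and to a smaller degree of Paics and Sumf2, are uncertain.

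Mdh1-202 was abundant in WT libraries and nearly absent from all KO/NTZ libraries. Its estimated count had a lowest, median and highest value of 697, 1111 and 1912 in WT/PEG libraries and of 543, 993 and 1353 under NTZ. In KO libraries these were 0, 142 and 537 with PEG, and 0, 0 and 3 with NTZ. KO/PEG libraries were already below every WT library, and 6 of 13 had 3 counts or fewer, the floor used here for a signal. In CPM the ranges were 76.6 to 113 in WT/PEG, 61.4 to 108 in WT/NTZ and 0 to 26.5 in KO/PEG. Among the 19 tested transcripts of the 5 genes, none differed between WT/NTZ and WT/PEG by the quasi-likelihood test of edgeR (Benjamini-Hochberg adjustment over all 30782 transcripts), where 0.195% of all were called. None had an unadjusted p under 0.05 by edgeR or DESeq2, and 1 had one by limma-trend. For Mdh1-202 the log2 fold change of WT/NTZ over WT/PEG was -0.14 ± 0.65 (SE, adjusted p = 1.0), with a 95% interval from -1.42 to 1.13. The fit took the spread of a transcript from all libraries, the uneven KO/PEG group included. The width of this interval therefore does not show the spread within WT. There the standard deviation was 12.2 CPM with PEG and 18.7 CPM with NTZ. For the lost transcripts of the other genes the SE in this fit was 0.63 to 0.72. A missing call for a lost transcript between the WT groups is thus weak evidence of no change.

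In KO/PEG against WT/PEG 11 of the 19 tested transcripts passed, 8 lower and 3 higher. Of all transcripts tested 53.5% passed in this comparison, 27% lower and 26.5% higher, so the members' count is close to that of any transcripts. The comparison shares the KO/PEG libraries with the one that chose the members. Mdh1-202 fell by 3.53 on the log2 scale in KO/PEG (SE 0.64, adjusted p = 1.3e-05). Mdh1-203, another short transcript with 71.2% of its words in Mdh1-201, fell by 5.13 (SE 0.75, adjusted p = 3.31e-07), and had between 67 and 613 counts in WT libraries and a median of 0 in both KO groups. The main transcript Mdh1-201 had a log2 fold change of 0.01 ± 0.09 (adjusted p = 0.947), with medians of 448 CPM in WT/PEG and 455 CPM in KO/PEG, but with library totals in place of TMM scaling it passed at 0.33 (adjusted p = 0.0025). Mdh1-204 stayed at 7 counts or fewer in every library.

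Paics-202 and the main transcript Paics-203 moved in opposite directions. In WT mice the lowest, median and highest counts of Paics-202 were 448, 624 and 1108 with PEG and 230, 543 and 780 with NTZ. In KO/PEG they were 0, 102 and 373, and all 11 KO/NTZ libraries were at 0. Paics-203 had medians of 512 and 510 counts in the WT groups with PEG and NTZ, and of 1235 and 1015 in the KO groups. By these medians Paics-202 was the more abundant in both WT groups and Paics-203 in both KO groups, although the mean counts of Paics-202 and Paics-203 in WT/NTZ, 549 and 561, had the other order. The CPM of Paics-202 did not overlap between WT/PEG (55.6 to 68.7) and KO/PEG (0 to 26). In WT/NTZ the lowest value, 26.0078 CPM in WT_117, was just below the highest of KO/PEG, 26.0265 CPM in KO_137. The share of all transcripts whose ranges did not overlap was not counted, here or for the other lost transcripts. In KO/PEG against WT/PEG, Paics-202 fell by 2.86 on the log2 scale (SE 0.69, adjusted p = 0.000821) while Paics-203 rose by 0.92 (SE 0.11, adjusted p = 1.14e-08), and by 0.89 without the 5 KO/PEG libraries of high 3' share. In WT/NTZ against WT/PEG the changes were -0.22 ± 0.72 and 0.19 ± 0.12 (both adjusted p = 1.0). Paics-201 and Paics-207, the other tested transcripts, did not pass in either comparison, and Paics-204, Paics-205 and Paics-206 had 8 counts or fewer in every library.

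Dnaja1-205 had a lowest, median and highest count of 168, 261 and 505 in WT/PEG and of 86, 209 and 388 in WT/NTZ. With 0, 13 and 253 it was lower in KO/PEG, and it was at 0 in all KO/NTZ libraries. The CPM ranges of WT/PEG (14.7 to 40.8) and KO/PEG (0 to 13.4) did not overlap, but that of WT/NTZ (11.6 to 26.9) overlapped with KO/PEG. It fell by 2.62 in KO/PEG against WT/PEG (SE 0.68, adjusted p = 0.00172), and Dnaja1-206, a short transcript with 94.8% of its words in Dnaja1-201, fell by 3.85 (SE 0.82, adjusted p = 0.000213). The main transcript Dnaja1-201 rose by 0.53 (SE 0.15, adjusted p = 0.00391), a call that was lost without the 5 KO/PEG libraries of high 3' share, where its log2 fold change was 0.18 (adjusted p = 0.31). In WT/NTZ against WT/PEG the change of Dnaja1-205 was -0.43 ± 0.72 (adjusted p = 1.0). Dnaja1-204, Dnaja1-208 and Dnaja1-210 passed in neither comparison, and Dnaja1-202, Dnaja1-203, Dnaja1-207 and Dnaja1-209 had 5 counts or fewer in every library.

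Sumf2-202 was low throughout. Its lowest, median and highest counts were 6, 34 and 76 in WT/PEG and 18, 51 and 89 in WT/NTZ. They were 0, 0 and 70 in KO/PEG, where 7 of 13 libraries had 3 counts or fewer already, and 0, 0 and 1 in KO/NTZ. The ranges of WT/PEG and KO/PEG overlapped. It fell by 1.74 in KO/PEG against WT/PEG (SE 0.67, adjusted p = 0.0268), a call that was lost without the 5 libraries of high 3' share, without the filter on low counts (adjusted p = 0.0636), with only those groups in the fit (adjusted p = 0.073) and with scaling by library totals alone (adjusted p = 0.1). Sumf2-204, the main transcript, rose by 1.73 (SE 0.29, adjusted p = 4.58e-06), or by 1.06 without those libraries (adjusted p = 0.00235), with medians of 38 and 37 counts in the WT groups with PEG and NTZ, and of 166 and 204 in the KO groups. In WT/NTZ against WT/PEG, Sumf2-202 changed by 0.48 ± 0.72 (adjusted p = 1.0). The other 4 transcripts of Sumf2 had at most 8 counts in a library.

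Hip1r-207 had a median of 62 counts in WT/PEG (3.85 to 8.07 CPM) and of 59 in WT/NTZ (1.71 to 9.07 CPM). The median was 18 in KO/PEG (0 to 2.07 CPM), below every WT/PEG library, and every KO/NTZ library was at 0. It was a small part of its gene, since the main transcript Hip1r-201 had medians of 1465 and 1563 counts in the WT groups and of 2368 and 1868 in the KO groups. In KO/PEG against WT/PEG, Hip1r-207 fell by 2.82 (SE 0.60, adjusted p = 0.000193) and Hip1r-202 by 5.23 (SE 0.96, adjusted p = 1.42e-05), and Hip1r-201 did not pass (0.18 ± 0.10, adjusted p = 0.126), although with library totals alone it did (0.49, adjusted p = 5.53e-07). Hip1r-202 is a short transcript with 34 counts or fewer in any library, and it was already at or below 3 counts in 5 of 9 WT/NTZ libraries. In WT/NTZ against WT/PEG the change of Hip1r-207 was -0.24 ± 0.63 (adjusted p = 1.0). Hip1r-204 passed in neither comparison, and Hip1r-203, Hip1r-205 and Hip1r-206 had 21 counts or fewer.

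**Figure D2:**
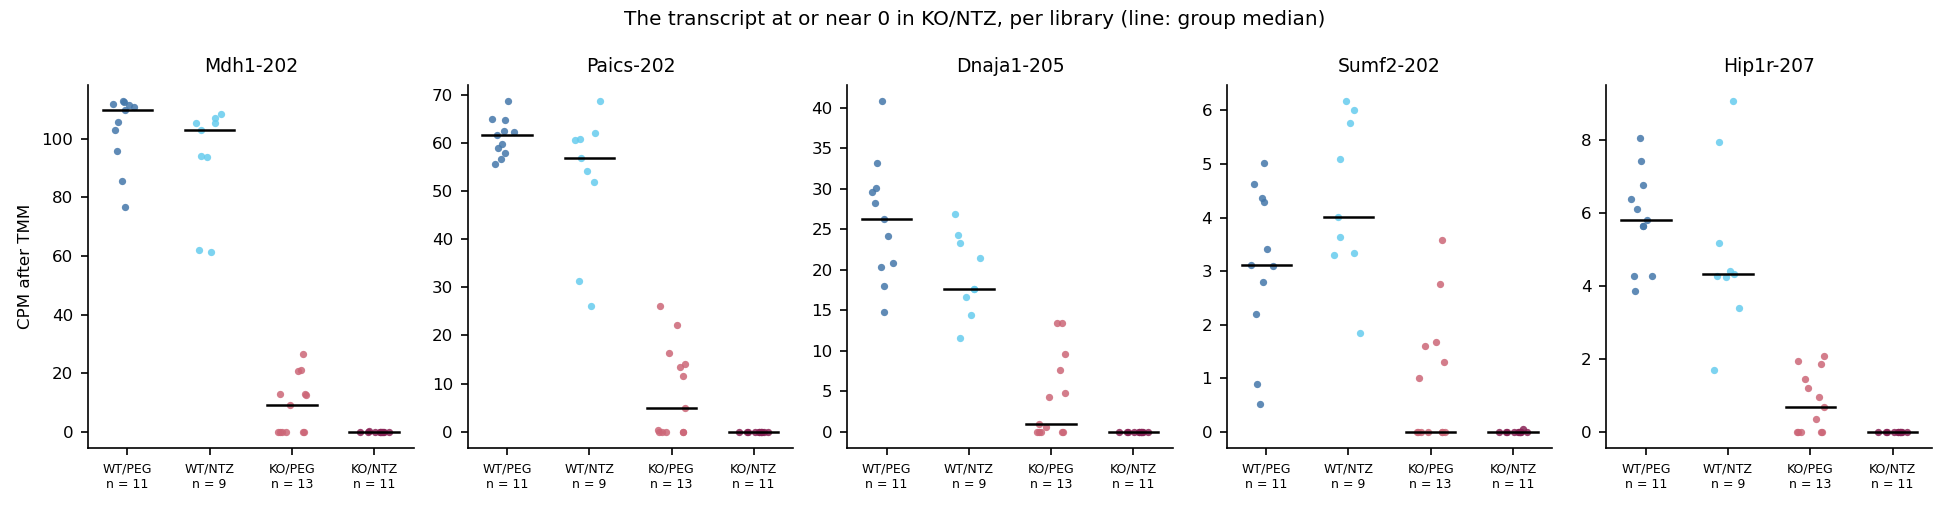
Vertical axes give the CPM after TMM scaling of the lost transcript of each gene, with a point for each library, a line at the group median and the number of libraries under each group. KO/NTZ libraries lie at or next to 0 in all 5 panels, WT libraries lie above 0, and KO/PEG libraries are spread between 0 and a highest value of 26.5 CPM for Mdh1-202.

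The gene sums, which do not depend on how reads were divided among the transcripts of a gene, were compared between the KO groups by their medians. The median sum of Mdh1 was 478 CPM in KO/PEG and 468 CPM in KO/NTZ. For Paics it was 98 and 86.2 CPM, for Dnaja1 163 and 146 CPM and for Hip1r 164 and 163 CPM. The sum of Sumf2 had a median of 10.2 CPM in KO/PEG and 15.6 CPM in KO/NTZ, so the description that the gene total holds fits it less well. In every gene the ranges of the KO groups overlapped.

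None of the 5 sums passed in WT/NTZ against WT/PEG, where 1.03% of 14912 gene sums did, and none had an unadjusted p under 0.05 with edgeR, DESeq2 or limma-trend. The log2 fold changes were between -0.11 (Dnaja1, 95% interval -0.41 to 0.19) and 0.13 (Sumf2, -0.31 to 0.58). In KO/PEG against WT/PEG, 2 of 5 passed, while 74.7% of all gene sums did. Sumf2 rose by 0.92 (SE 0.21, adjusted p = 0.000134) and Mdh1 fell by 0.25 (log2 fold change -0.25, SE 0.09, adjusted p = 0.0119). The values were 0.19 ± 0.14 for Dnaja1 (adjusted p = 0.211), 0.16 ± 0.10 for Hip1r (adjusted p = 0.152) and -0.13 ± 0.09 for Paics (adjusted p = 0.198). Without the 5 KO/PEG libraries of high 3' share the rise of Sumf2 was 0.35 and no longer passed (adjusted p = 0.071). In that fit 1 of 5 sums was called, beside 9448 of all 14916, and Dnaja1 (-0.13) and Hip1r (-0.04) changed sign. The directions of Mdh1 and Paics depend on the scaling. With library totals alone, the median log2 fold change over all genes in this comparison was 0.29 in place of 0.01, with Mdh1 at 0.02 and Paics at 0.15. The sums called were then 3 higher and 0 lower in place of 1 and 1, beside 7275 higher and 2972 lower of all 14912. For transcripts that scaling gave 5 higher and 7 lower in place of 3 and 8, beside 10484 higher and 4503 lower of all 30782.

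**Figure D3:**
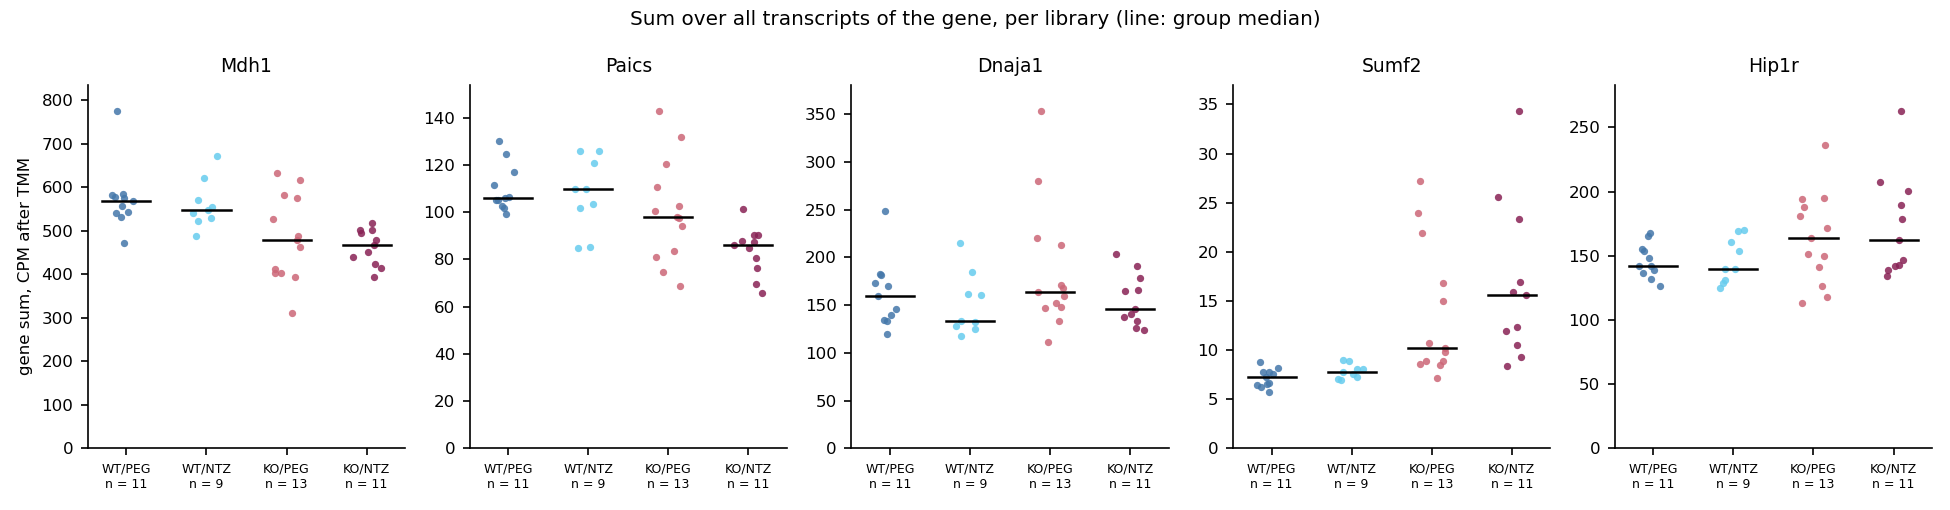
Vertical axes start at 0 and give the sum of all transcripts of each gene in CPM after TMM scaling, with a point for each library, a line at the group median and the number of libraries under each group. The KO/NTZ points lie within or near the spread of KO/PEG for Mdh1, Paics, Dnaja1 and Hip1r, and the medians of Sumf2 are higher in both KO groups than in WT, with overlapping points.

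The share of a transcript in the counts of its gene does not depend on scaling. Mdh1-202 held a median of 18.1% of the Mdh1 counts in WT/PEG and 17.2% in WT/NTZ, but 1.56% in KO/PEG and 0% in KO/NTZ. In the same order of groups, Paics-202 held 54.6%, 48.5%, 3.74% and 0%, while Paics-203 held 40.6%, 47.4%, 91% and 99.2%. Since the shares of a gene add to 100%, a low share of the lost transcript leaves a high share to the others, also without a gain of the main transcript. After TMM scaling, Paics-203, Dnaja1-201 and Sumf2-204 themselves rose in KO/PEG against WT/PEG, while Mdh1-201 and Hip1r-201 did not pass.
The medians of Dnaja1-205 were 16%, 13.2%, 0.575% and 0%, and those of Dnaja1-201 71.1%, 77.7%, 93.5% and 97.2%. Sumf2-202 held 45.3%, 54.5%, 0% and 0%, and Sumf2-204 44.3%, 41.1%, 98.8% and 99.5%. Hip1r-207 held 4.01%, 3.21%, 0.573% and 0%. A count of 0 allows up to 3 counts, which is between 0.137 and 0.495 CPM in these libraries and covers counting error only.

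**Figure D4:**
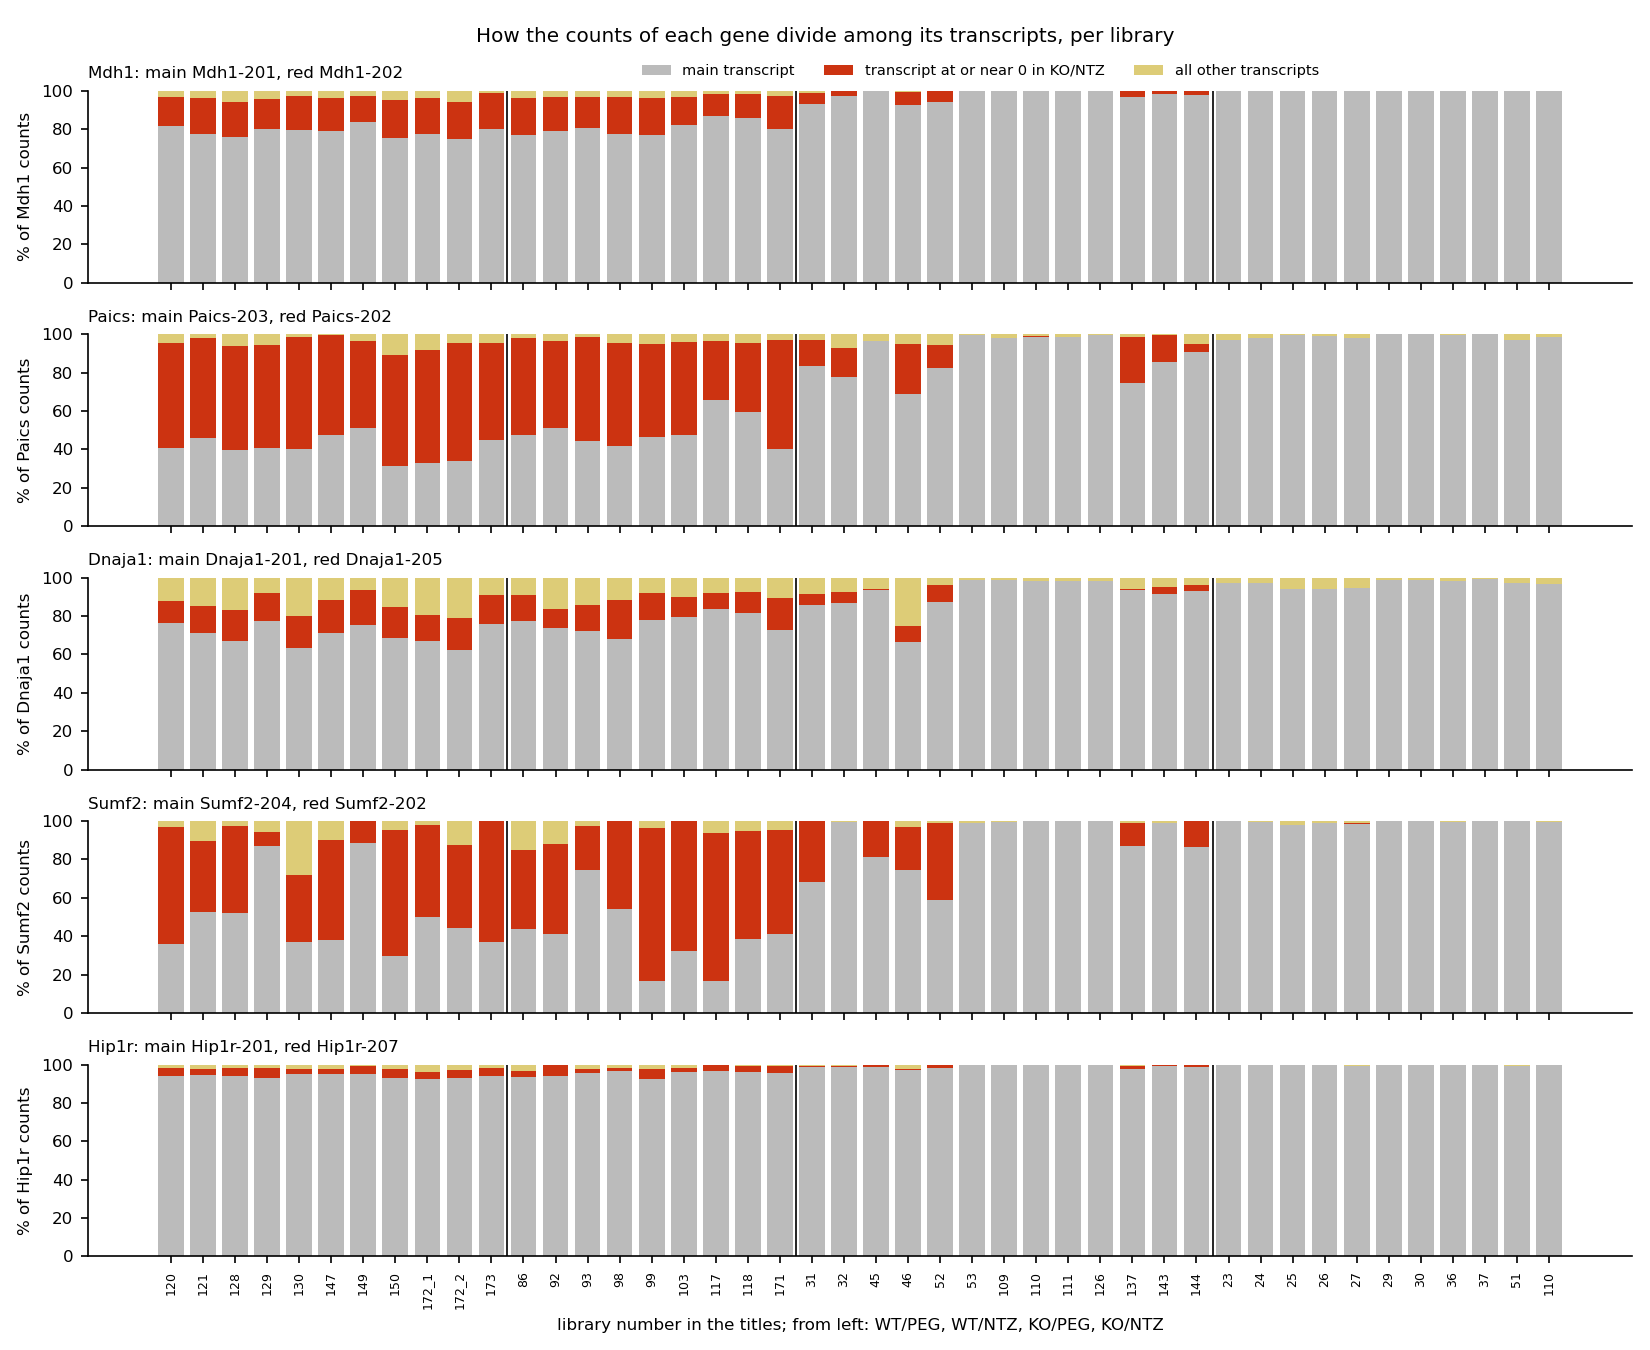
Each column is a library, ordered by group and by the number in its title, and its height divides 100% of the counts of a gene into the main transcript (grey), the lost transcript (red) and all other transcripts (yellow). Red is present in all WT columns, in some of the KO/PEG columns and in hardly any KO/NTZ column. As every column adds to 100%, a smaller red part leaves a larger part to the other colours, mostly grey.

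In WT/NTZ against WT/PEG no share of the 19 tested transcripts passed by edgeR's diffSpliceDGE (0.184% of 22794 did), nor by limma on the log2 ratio of a transcript to the rest of its gene (0.00877%), and none had an unadjusted p under 0.05 by either. In KO/PEG against WT/PEG, 9 passed by diffSpliceDGE, 8 lower (11.9% of all were) and 1 higher (8.51%), where 20.4% of all passed. By the ratio 17 passed, 12 lower (31.4% of all) and 5 higher (23.7%), where 55.1% of all passed. The 5 higher were the main transcripts. Since the ratio sets a transcript against the rest of its gene, a fall of the lost transcript raises the ratio of the main one. The higher calls are therefore no results separate from the lower ones, and in Sumf2 the ratios mirrored each other (-4.12 for Sumf2-202 and 4.12 for Sumf2-204). The 5 lost transcripts were lower by both, although Sumf2-202 did not pass by diffSpliceDGE without the 5 libraries of high 3' share (edgeR adjusted p = 0.197). The difference in log2 ratio was -5.68 ± 0.80 for Mdh1-202 (limma adjusted p = 1.82e-07), -5.74 ± 0.75 for Paics-202 (limma adjusted p = 4.06e-08) and -4.53 ± 0.69 for Dnaja1-205 (limma adjusted p = 7.16e-07). It was -4.12 ± 0.69 for Sumf2-202 (limma adjusted p = 4.28e-06) and -3.43 ± 0.44 for Hip1r-207 (limma adjusted p = 3.48e-08). The fold changes of diffSpliceDGE for the same transcripts ranged from -3.22 to -2.67.

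The KO/PEG libraries did not behave as a uniform group, and 4 of them lacked the lost transcripts of all 5 genes. The KO/PEG libraries are called by their titles. In the order KO_31, KO_32, KO_45, KO_46, KO_52, KO_53, KO_109, KO_110, KO_111, KO_126, KO_137, KO_143 and KO_144, the counts of Mdh1-202 were 537, 328, 0, 297, 326, 0, 0, 0, 0, 0, 176, 142 and 268. Libraries KO_53, KO_109, KO_111 and KO_126 had 0 counts of all 5 lost transcripts, and KO_110 had 5 counts of Paics-202 and 0 of the others. Library KO_45 had 0 counts of Mdh1-202 and Paics-202, 12 of Dnaja1-205, 31 of Sumf2-202 and 28 of Hip1r-207. Libraries KO_32 and KO_143 lacked Sumf2-202 alone, and 5 libraries held all 5 transcripts above 3 counts. By contrast all 11 KO/NTZ libraries had 3 counts or fewer of each, and all 20 WT libraries more than 3 of each. The number 110 stands in the title of a KO/PEG and of a KO/NTZ library, and no lost transcript was above 5 counts in either.

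The numbers in the titles also divide the groups, since 10 of 11 KO/NTZ libraries are numbered below 100 and 7 of 13 KO/PEG libraries are numbered 100 or above. The labels do not say what the numbers stand for. Of the 5 KO/PEG libraries of high 3' share, KO_109, KO_110, KO_111 and KO_126 are numbered 100 or above and only KO_53 below. The split by number thus overlaps with the 3' share, and it was not run without those libraries. The KO/PEG libraries also took part in the choice of the members. The p-values of the split within KO/PEG are therefore given as a description. Within the KO libraries below 100, the KO/PEG libraries lacking Mdh1-202 were KO_45 and KO_53, against all 10 KO/NTZ libraries. When KO/PEG libraries numbered 100 or above were compared with those below 100, 1 of the 19 tested transcripts passed (0.396% of all did), Mdh1-203, which was lower by a log2 fold change of -4.62 (SE 1.07, edgeR adjusted p = 0.0367). At an unadjusted p under 0.05 there were 11 of the 19, beside 4459 of all 30782, and Dnaja1-205 (edgeR p = 0.0122, adjusted p = 0.201) and Sumf2-202 (edgeR p = 0.021, adjusted p = 0.242) were among them. The lost transcripts did not pass after adjustment, with log2 fold changes of -1.41 ± 0.82 for Mdh1-202, -0.56 ± 0.92 for Paics-202, -2.31 ± 0.87 for Dnaja1-205, -2.16 ± 0.90 for Sumf2-202 and -0.19 ± 0.81 for Hip1r-207. In WT/NTZ libraries the same split called none of the 19 by edgeR (0.0195% of all), with 2 at an unadjusted p under 0.05.

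Because every lost transcript ends before the 3' end of its main transcript, the weight of the 3' ends was measured in each library over other genes. In 454 genes, not counting the members, 603 transcripts cover only the 3' part of the main transcript, and their mean share of the counts of their genes is called the 3' share. In WT mice it was between 13.9% and 16.3% with PEG and between 14.2% and 17.5% with NTZ. In KO mice it was between 18.8% and 35% with PEG and between 21.8% and 39% with NTZ. WT and KO libraries did not overlap, so this measure and the genotype cannot be told apart. The mean share of 5115 transcripts that end early, from 2262 other genes, ran the other way, from 7.15% to 10.4% in WT and from 4.55% to 7.48% in KO libraries.

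Among KO/PEG libraries the 3' share moved with the lost transcripts. In the order of libraries above it was 19%, 20%, 22.6%, 18.8%, 19.6%, 34.1%, 35%, 30.8%, 27.3%, 29.9%, 19.7%, 21.1% and 20.7%. Libraries KO_53, KO_109, KO_110, KO_111 and KO_126, in which the lost transcripts were at 0 or nearly so, had the 5 highest values, and KO_45, which held only some of them, had the next. The ranges of KO/NTZ and KO/PEG overlapped between 21.8% and 35%. The 3 KO/NTZ libraries with the lowest 3' shares, 21.8%, 23% and 23.4%, had no lost transcript above 3 counts. The part of the 3' share in the loss was not tested. An alternative added after the data were examined left out the 5 libraries of highest 3' share. KO/PEG against WT/PEG then called 9 of the 19 tested transcripts, 7 lower and 2 higher. Of all 31012 transcripts tested in this fit 11578 passed, 5295 lower and 6283 higher. Dnaja1-201 was no longer among the higher. The lost transcripts were at 0 or nearly so in the libraries left out, so smaller falls follow from leaving those out. The log2 fold changes were then -2.80 for Mdh1-202 (edgeR adjusted p = 6.59e-07), -2.14 for Paics-202 (0.000288), -1.90 for Dnaja1-205 (0.000295) and -2.10 for Hip1r-207 (6.21e-06), while Sumf2-202 at -1.03 no longer passed (adjusted p = 0.152). The 5 libraries also had between 2.37% and 3.72% of counts from mitochondrial genes, in a KO/PEG range of 2.37% to 14.4%, and between 6510 and 28412 CPM of Tff2, a mucous neck and metaplasia marker, in a KO/PEG range of 879 to 28412 CPM, and KO_32, KO_137 and KO_143, which held most lost transcripts, had between 10102 and 14904 CPM.

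**Figure D5:**
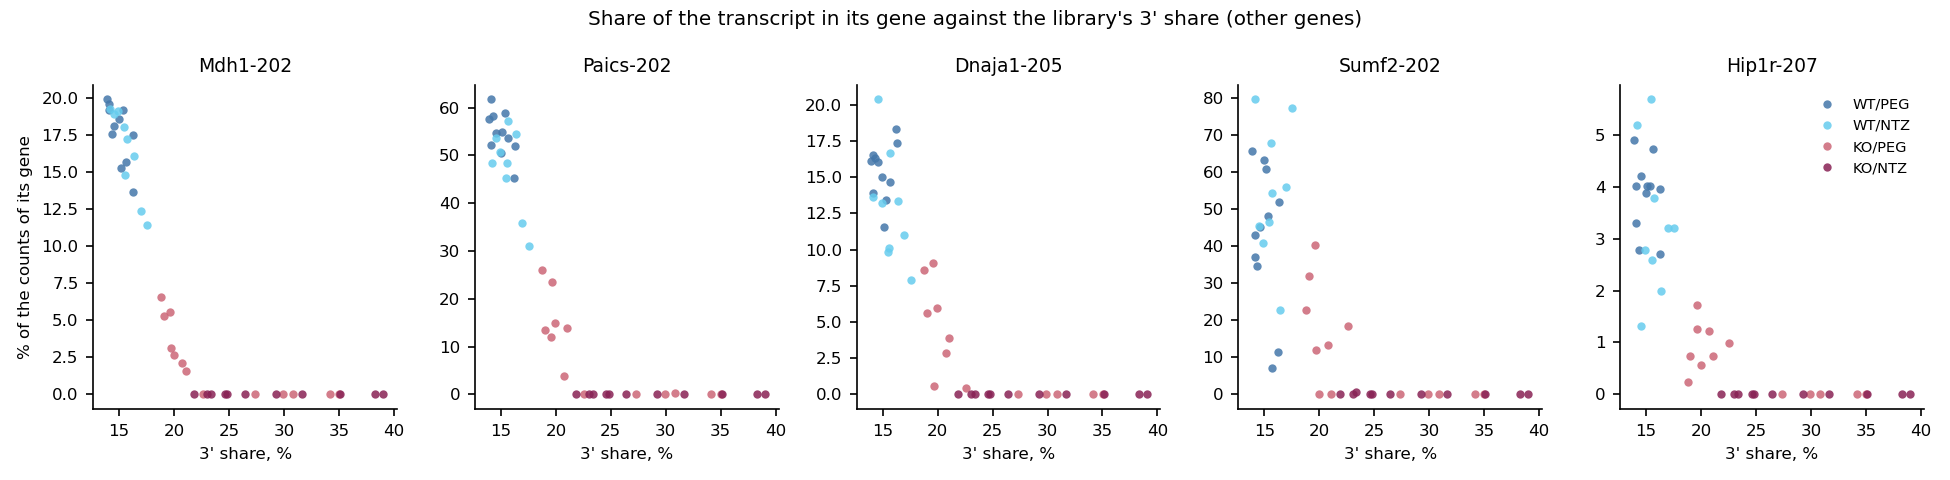
Horizontal axes give the 3' share of a library, measured in genes other than the members, and vertical axes the percentage of a gene's counts held by its lost transcript, with a point for each of the 44 libraries coloured by group. WT points lie at the left, KO/NTZ points lie along 0 from 21.8% onward, and the KO/PEG points clearly above 0 lie between 18.8% and 22.6%.

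In the 20 WT libraries, which took no part in the choice of the members, the share of Mdh1-202 went down as the 3' share went up, with Pearson's r = -0.85 (permutation p = 2e-05, adjusted over 5 relations 0.0001) and Spearman's rho = -0.84 (permutation p = 2e-05, adjusted 0.0001), where 2e-05 is the smallest p that 100000 resamples can give. Without the 2 libraries farthest from the median it was r = -0.71, and within WT/PEG and WT/NTZ it was -0.70 and -0.93. For Paics-202 r was -0.70 (permutation p = 0.00106, adjusted 0.00265) and rho -0.50 (permutation p = 0.0265, adjusted 0.0664), with r = -0.62 and -0.66 within the groups, but without the WT/NTZ libraries WT_117 and WT_118 r was -0.36, so that it rests on those libraries. Dnaja1-205 (r = -0.43, permutation p = 0.0586, adjusted 0.0977, rho = -0.31, adjusted 0.236), Sumf2-202 (r = -0.04, permutation p = 0.857, adjusted 0.857, rho = 0.02, adjusted 0.924) and Hip1r-207 (r = -0.23, permutation p = 0.33, adjusted 0.413, rho = -0.32, adjusted 0.236) did not pass. The tests were two-sided. These relations were chosen with the KO values known.

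The loss was not particular to these 5 genes. Transcripts were sought that had a median of at least 30 counts in KO/PEG and of 3 or fewer in KO/NTZ. The median gene sum, taken relative to the library total without TMM scaling, had to stay within 1.5-fold. Of 18432 transcripts with at least 30 counts in KO/PEG, 332 (1.8%) met these conditions, against 52 of 17178 (0.303%) in the opposite direction. Mdh1-202 and Paics-202 were among the 332, and the others missed the limit of 30 counts in KO/PEG, with medians of 13 for Dnaja1-205, 18 for Hip1r-207 and 0 for Sumf2-202. Under a stricter limit on the gene sum the number was 264, with Mdh1-202 among them and without Paics-202. Between the WT groups, 125 (0.718%) were lost in WT/NTZ and 113 (0.66%) in WT/PEG, none of them from the members. From WT/PEG to KO/PEG, 469 of 17418 (2.69%) were lost, with Mdh1-203 and Dnaja1-206 among them, and 247 (1.34%) the other way. From WT/NTZ to KO/NTZ, 658 of 17134 (3.84%) were lost, among them Mdh1-202, Mdh1-203, Paics-202, Dnaja1-205, Dnaja1-206 and Hip1r-207, and 264 (1.54%) the other way. These comparisons share groups and their counts were not tested against each other. The members were chosen for a transcript near 0 in KO/NTZ, so the place of their lost transcripts among those lost in KO/NTZ follows from that choice.

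Transcripts of other genes followed the lost ones closely over the 44 libraries. By the correlation of log2 CPM, Mdh1-202 was most like Paics-202 (Pearson's r = 0.992), Mlx-206 (0.990) and Hspa8-209 (0.990), and Paics-202 was most like Mdh1-202, Mlx-206 (0.981) and Hspa8-209 (0.978). Dnaja1-205 was most like Mlx-206 (0.987), Mdh1-202 (0.982) and Uggt1-209 (0.976), and Hip1r-207 like Dop1a-201 (0.954), Uggt1-209 (0.953) and Mdh1-202 (0.949). Sumf2-202 followed Crls1-204 (0.937), Prpf19-208 (0.928) and Bpgm-205 (0.923). The correlations are a description, since all libraries share the difference between WT and KO groups and the points fall in separate clusters.

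The partners of the members in their pathways were compared as gene sums. In KO/PEG against WT/PEG, 36 of 57 tested genes from the 5 lists, members included, passed, 19 higher and 17 lower, beside 74.7% of all. Of the malate-aspartate shuttle list, 2 of 8 were higher and 5 lower, led by Got1, the cytosolic aspartate aminotransferase (fell by 0.77, SE 0.08, adjusted p = 9.44e-11), with a median over the list of -0.26 where that over all genes was 0.01. That list also counts Slc25a10, a dicarboxylate carrier outside the shuttle itself, which was 1 of the 2 higher (rose by 1.03). Of de novo purine synthesis 1 of 8 was higher and 2 lower, led by Prps2, which makes the ribose phosphate donor (fell by 1.78, SE 0.21, adjusted p = 1.44e-09), with a median of -0.11. Of the chaperones 7 of 18 were higher and 4 lower, led by Dnaja3, a mitochondrial J-domain protein (fell by 0.47, SE 0.07, adjusted p = 8.79e-08), with a median of 0.23.
Of the sulfatases and their activating factors 3 of 11 were higher, Sumf2 among them, and 3 lower, led by Galns, a lysosomal sulfatase (rose by 1.48, SE 0.15, adjusted p = 3.94e-11), with a median of -0.01. Of the clathrin and actin genes 6 of 12 were higher and 3 lower, led by Clta, a clathrin light chain (rose by 0.91, SE 0.10, adjusted p = 1.08e-10), with a median of 0.19. No list gene passed in WT/NTZ against WT/PEG by edgeR or DESeq2, with 2 of 57 at an unadjusted p under 0.05 by each. The smallest adjusted p there was 0.378 for Ap2b1 (log2 fold change -0.11), and the genes with the smallest p in the other lists were Slc25a10, Ppat, Hspa5 and Sumf1. In KO/NTZ against KO/PEG, with the members left out, none of 52 passed by edgeR (5.65% of all gene sums did), with 14 at an unadjusted p under 0.05. The genes with the smallest p were Hspa1a, an inducible Hsp70 (log2 fold change -1.68, edgeR adjusted p = 0.0563), Dnm2, Prps2, Slc25a13 and Sulf1, and DESeq2 called 2, Hspa1a and Hsp90aa1, both lower.

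Of the marker lists of cell types that a corpus biopsy can hold, only that of chief cells had ranges in WT and KO libraries that did not overlap. The chief cell genes, which share Gif with the parietal list, summed to between 61813 and 209269 CPM in WT and 2447 and 36463 CPM in KO libraries, and the mucous neck or metaplastic genes Tff2 and Muc6 to between 795 and 1539 CPM in WT and 1329 and 36137 CPM in KO libraries. Between KO/PEG and KO/NTZ these sums overlapped, with medians of 13567 and 15905 CPM for Tff2 and Muc6, and 5140 and 3470 CPM for the parietal list, Gif included. Genes of smooth muscle had medians of 859 and 1685 CPM, of endocrine cells 4761 and 5434 CPM, of surface mucous cells 47576 and 48992 CPM, and of immune cells 362 and 217 CPM in KO/PEG and KO/NTZ. The endocrine list held Chga, Hdc, Sst and Ghrl. In KO mice the paper reported lower Chga and Hdc but higher Sst with NTZ. The sum of this list therefore does not show the direction of any single endocrine cell type. Forestomach genes were between 0.876 and 2565 CPM and pancreas genes between 0.229 and 96.9 CPM over all libraries. The part of these differences in the loss of single transcripts was not tested.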

How the data were processed

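RNA of gastric corpus mucosa from 44 libraries was sequenced by the authors in single reads of 75 bases (TruSeq Stranded mRNA). The authors quantified GRCm38 transcripts with kallisto 0.42.4 and deposited estimated counts per transcript, without normalization. These estimated counts, as deposited, were rounded and summed per gene with GENCODE vM21, which paired 92372 of 94080 transcripts. The 1708 others held between 0.329% and 1.3% of the counts of a library. Since kallisto splits reads over transcripts with shared sequence, single transcripts are less certain than sums.

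Groups were taken from the sample labels. After filterByExpr (minimum count 10, total 15), 30782 transcripts and 14912 genes were fitted in edgeR 4.0.16 (R 4.3.3) with TMM scaling, a mean per group and all libraries in a single fit, tested with the quasi-likelihood test and adjusted by Benjamini-Hochberg at 0.05. Shares of transcripts were tested with diffSpliceDGE, and, chosen after the data were examined, with limma 3.58.1 on log2 ratios (prior count 2). In a simulation of WT/NTZ against WT/PEG with 20571 transcripts, diffSpliceDGE made 96 calls, 52 of them in genes without a change, and the log2 ratio made 183, 6 of them in such genes. The simulated counts were drawn independently for each transcript, with no reads divided between transcripts of a gene. How either test behaves in KO/PEG against WT/PEG is not shown by this, and both are given. Alternatives were RLE scaling, no filter, only the groups compared, DESeq2 1.42.0, limma-trend, the WT/PEG pair with a shared title number summed, and, added later, library totals alone and leaving out KO/PEG libraries with a 3' share above 25%.

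The 3' share used 31-base words. A transcript counted where at least 80% of its words lay in the main transcript of its gene (at least 1000 bases long, the gene with 100 counts or more in every library) and it began at least 150 bases after the 5' end but ended within 150 bases of the 3' end. The floor of 3 counts was the same in every library and came to between 0.137 and 0.495 CPM at total counts of 6065084 to 21945124. Figures were drawn with matplotlib 3.10.9.

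Every transcript of the members is named, with the 3 transcripts of other genes most like each lost transcript, pseudogenes with shared words, and the gene with the smallest p in each list. The members and lists were chosen with earlier results of these data known.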

Additional observations from a re-analysis of the deposited data

How the results depend on the processing

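The counts of calls among the members in both tested comparisons stayed within 1.5 times their value under each alternative run, with 2 exceptions in KO/PEG against WT/PEG. With limma on the log2 ratio 17 in place of 9 transcript shares passed, and without the 5 KO/PEG libraries of high 3' share 1 in place of 2 gene sums did. The latter also turned the sums of Dnaja1 (-0.13) and Hip1r (-0.0352), and took from Sumf2-202 its calls as a transcript and as a share. DESeq2 called 4 in place of 1 transcript between KO/PEG libraries by title number, 1 in place of 0 between WT/NTZ libraries, and 2 in place of 0 list genes in KO/NTZ against KO/PEG. In the description of KO/NTZ against KO/PEG, 4 of the 5 lost transcripts had a KO/NTZ median below 0.1 of the KO/PEG median, Sumf2-202 having a median of 0 in both. The number was between 4 and 5 when single KO libraries were left out, 5 when any of 7 KO/PEG libraries without Sumf2-202 was, and 0 when counts were summed per gene. Transcripts lost in KO/NTZ with the gene sum held numbered 537 in place of 332 with only KO libraries numbered below 100. With library totals alone the log2 fold changes of gene sums turned to 0.0232 for Mdh1 and 0.15 for Paics in KO/PEG against WT/PEG, and to 0.00651 for Mdh1 in WT/NTZ against WT/PEG. That of Hip1r in the latter was -0.0056 without the filter and -0.00245 with limma-trend, in place of 0.001. None of these changes of direction passed the test. The cause was not tested. No paired analysis was possible because the groups share fewer than 2 title numbers.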
